A study of Rattus norvegicus with 72 samples.

Results

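The change of control rat hepatocytes with time in monolayer was taken from the control dishes of the methapyrilene set. It compares 3 arrays of RNA collected at 72 h, titled C(MPH)_72h, with 3 arrays collected at 24 h, titled C(MPH)_24h. The 6 arrays were chosen by their titles, out of 72 in the series, and each 72 h array was paired with the 24 h array of the same D number (4, 5 or 6, for replicates 1, 2 and 3). The labels do not say what a D number stands for, but the protocol speaks of independent experiments for each compound. The hepatocytes were isolated by collagenase perfusion and plated as a monolayer in a medium with serum and glucagon, which was replaced after some hours by a serum-free medium with hydrocortisone and insulin. The 72 h and 24 h are counted from the start of exposure in the treated dishes, which began less than a day after plating, so that the cells had been in culture for longer than the stated time. The labels call these dishes controls and do not state a vehicle, nor the strain, sex or age of the rats. Beside them stand methapyrilene-treated dishes (8.5 µM, titled MPH) with the same D numbers, and 2 other control groups, C(NNK) and C(2NF_PIPB_NIF), which share D numbers 7, 8 and 9; a further control group is C(WYE_CND_AFB), with D numbers 1, 2 and 3.

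A hepatocyte in the liver makes most plasma proteins, breaks down amino acids, synthesises bile acids and clears drugs with cytochrome P450 enzymes. These functions are set by a network of liver transcription factors, among them HNF4α (gene Hnf4a) and C/EBPα (Cebpa). Once the cells are freed from the tissue and spread on plastic they are known to lose part of these functions and to build actin stress fibres and matrix, a course called dedifferentiation.

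All 31042 probe sets that are not array controls were considered, and 18048 of them, those with a mean at or above the median of the whole table (an intensity of 19.74) in at least 1 of the 24 groups of the series, were tested. Of these 2581 (14.3%) differed between 72 h and 24 h at an adjusted p under 0.05 in limma, which is called below a rise or a fall, with 1566 (8.68%) higher and 1015 (5.62%) lower at 72 h. With 1 probe set for each of 10178 named genes, 1009 genes rose (9.91%) and 689 fell (6.77%), and these shares are the background for the gene groups below. The median change over the genes was 0.0344 on the log2 scale. The filter let in genes that were dim at 24 h but brighter in some other group, and such genes had little room to fall. A rise of over 1 on the log2 scale was seen for 343 genes and a fall of that size for 150. All 3 pairs had the same sign for 1681 of the 1698 called genes, beside 4880 of all 10178 (47.9%). The 3 arrays at 72 h lay above all 3 arrays at 24 h for 634 called genes and below them for 471, and the groups overlapped for the other 593. Over all 10178 genes, called or not, these counts were 1262 and 992, so that the groups were apart for 22.1% of all genes, beside 65.1% of the called ones. The pairing by D number bears on these counts, as without it 164 probe sets passed, and so does each pair. There were 888 calls without D number 4, 739 without D number 5 and 2341 without D number 6, and 1191 without the 72 h array of D number 5 alone. The 6 arrays were alike in their medians (19.6 to 22.1) and in the share of probe sets at the floor (17.5% to 20.5%). As a sign of RNA quality, the 3′ probe set of actin exceeded the 5′ one by 0.432 to 0.736 on the log2 scale at 72 h and by 0.643 to 0.908 at 24 h, and its part in the results was not tested.

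The largest fitted rise on the log2 scale, with low values at the floor, was that of Cd24, a small surface glycoprotein found on liver progenitor and bile duct cells. In the 72 h arrays of D numbers 4, 5 and 6 its intensity was 303, 464 and 77.8. In the 24 h arrays it was 9.70, 7.07 and 4.23, a log2 change of 5.07 ± 0.28 (adjusted p = 7.73e-07). The ± is the SE of the limma fit, here on 12 arrays with treated dishes included and 3 arrays per group. Within the pairs Cd24 changed by 4.965, 6.036 and 4.203. The 72 h array of D number 6 was the lowest of its group and still above every 24 h array. Map2, a microtubule-binding protein known from neurons, had 71.9, 421 and 29.1 at 72 h, against 0.198, 3.21 and 0.379 at 24 h, and since 2 of the 24 h arrays were below the floor of 3.117 the change of 4.93 ± 0.58 understates the ratio and its order to Cd24 is not set. The Notch ligand Jag1 had 69.8, 104 and 61.7 at 72 h, against 1.75, 14.6 and 1.93 at 24 h (3.88 ± 0.29), again with 2 of the 24 h arrays below the floor. For Cd24, Map2 and Jag1 the groups did not overlap. Other large rises were those of Pde10a, a phosphodiesterase of cyclic nucleotides (3.81 ± 0.34), the sodium, calcium and potassium exchanger gene Slc24a3 (3.69 ± 0.44), the retinol dehydrogenase gene Sdr16c5 (3.38 ± 0.36), the laminin chain gene Lamb2 (3.36 ± 0.47) and Dtna, of the dystrobrevin family (3.29 ± 0.40). Phospholamban (Pln), a regulator of the calcium pump of the sarcoplasmic reticulum, rose by 2.98 ± 0.26, securin (Pttg1), which holds back the separation of sister chromatids, by 2.94 ± 0.42, and Col6a2, a chain of collagen VI, by 2.90 ± 0.42. The 24 h arrays of Pde10a, Slc24a3 and Col6a2 also held 2 values below the floor, and rises measured from the floor have no set order. Map2, Dtna, Pln and Pde10a each had 2 tested probe sets. Only 1 of them was called for Map2, Dtna and Pln, and 2 for Pde10a. The 15 leave out genes with a group wholly at the floor, such as Krt7 and Prnd, whose fitted rises were 3.61 and 3.36. Of the 15 largest rises, Sncg (3.24 ± 0.64), Dbn1 (3.13 ± 0.49) and Mmp11 (2.87 ± 0.46) lost their call without D number 4 (adjusted p = 0.116, 0.0688 and 0.0729), Mmp11 also without D number 5 (adjusted p = 0.0813).

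The largest fitted fall was that of Serpina3c, a secreted inhibitor of serine proteases. It had 15.7, 23.5 and 20.0 at 72 h, against 429, 523 and 646 at 24 h, a log2 change of -4.76 ± 0.21 (adjusted p = 1.83e-07). Its relative Serpina3l had 31.3, 30.3 and 31.5 at 72 h, against 565, 792 and 935 at 24 h (-4.59 ± 0.14, adjusted p = 6.32e-09). In both the 3 arrays of each time lay close together, and the times did not overlap. Rup2 had 351, 219 and 206 at 72 h, against 3040, 3177 and 4771 at 24 h (-3.84 ± 0.20). Obp3 fell by 3.47 ± 0.39. The probes of Serpina3c, Serpina3l, Rup2 and Obp3 may bind more than 1 member of a gene family. The corticosteroid carrier Serpina6 fell by 3.82 ± 0.47 with 2 of its 72 h arrays at the floor, so that its order to Serpina3c is not set, the carboxylesterase gene Ces1c by 3.47 ± 0.23 and Il1rn, the antagonist of the interleukin-1 receptor, had a change of -2.72 ± 0.23. Among the 15 largest falls were also genes known from other cells of the liver. They were Fabp4, a fatty acid carrier of adipocytes, macrophages and endothelium, at -4.30 ± 0.36, the endothelial gene Esm1 at -3.82 ± 0.36, the Kupffer cell lectin Clec4f at -2.77 ± 0.41 and RT1-Ba, a chain of MHC class II, at -2.75 ± 0.58. RT1-Ba lost its call without D number 4 (adjusted p = 0.0675), and only 1 of its 3 tested probe sets was called. Each array holds the RNA of a whole dish, and fewer cells of a type and less RNA per cell cannot be told apart.

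**Figure D1:**
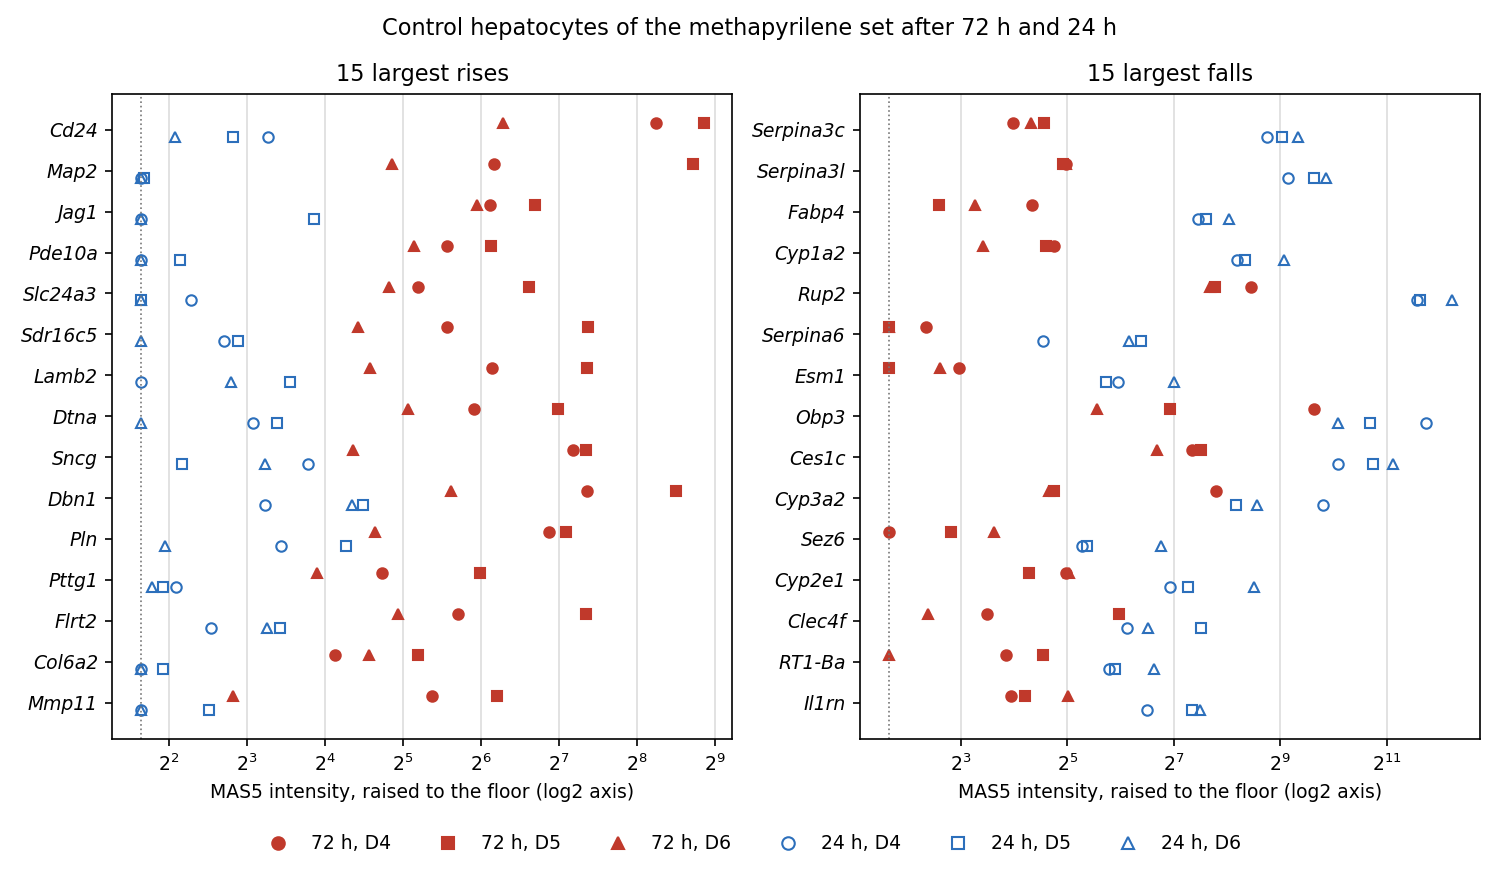
MAS5 intensities, raised to the floor (dotted line) and drawn on a log2 axis, of the 15 genes with the largest rises (left panel) and the 15 with the largest falls (right panel), as filled points for the 72 h arrays and open points for the 24 h arrays, with 1 shape per D number. The times lie apart for Cd24, Map2 and Jag1 in one direction and for Serpina3c, Serpina3l and Cyp1a2 in the other, and for the rises other than Col6a2 D number 6 (triangles) is the lowest 72 h array.

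Gene groups were described with 33 lists, which held 691 measured genes; 90 of these rose and 146 fell. Most liver functions lay on the falling side and the cytoskeleton, matrix and cell cycle on the rising side, as the plot of called members by list shows. The median change of a list ran between -1.39 for endothelial markers and 0.634 for bile duct markers.

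**Figure D2:**
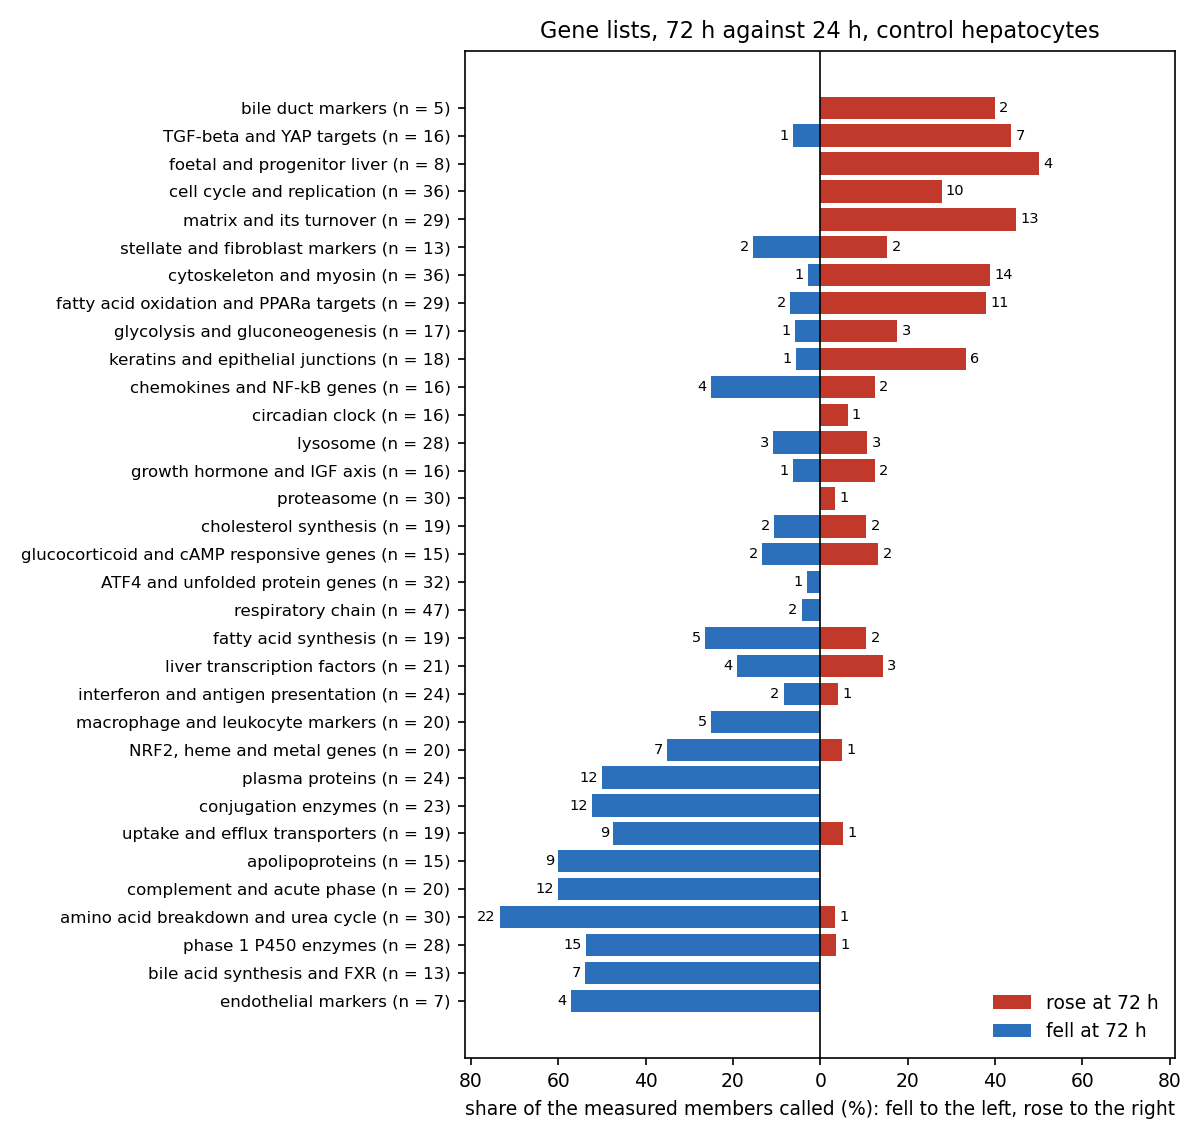
Share of the measured members of each gene list that rose (bars to the right) or fell (bars to the left) at 72 h against 24 h, in percent, with the number of genes at the end of each bar; lists are ordered by their median change. Amino acid breakdown and the urea cycle had the most falls (22 of 30) and cytoskeleton and myosin the most rises (14 of 36).

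Of 28 measured cytochrome P450 genes and their partners, which oxidise drugs, steroids and fatty acids, 15 fell and 1 rose, with a median of -0.654. Cyp1a2, which oxidises aromatic amines and caffeine, had 26.8, 24.3 and 10.6 at 72 h, against 293, 324 and 538 at 24 h (-4.28 ± 0.33, adjusted p = 1.12e-05). Cyp2e1, which oxidises ethanol and other small solvents, had 31.4, 19.3 and 32.5 at 72 h, against 122, 155 and 362 at 24 h (-2.81 ± 0.26). The male-predominant Cyp3a2 had 223, 26.9 and 25.1 at 72 h, against 894, 289 and 377 at 24 h (-3.11 ± 0.31). For all 3 genes every 72 h array was below every 24 h array, although for Cyp3a2 the array of D number 4 was far above the others at both times. Cyp3a9 (-2.31 ± 0.19) and Cyp2c23 (-2.10 ± 0.23) fell as well. The male-specific Cyp2c11 had 1125, 551 and 283 at 72 h, against 785, 486 and 615 at 24 h, and was not called (-0.14 ± 0.29, adjusted p = 0.789), with the groups overlapping. The only member that rose, Cyp2t1 (0.40 ± 0.11), lost its call without D number 4 or 5 (adjusted p = 0.212 and 0.233). Of the 15 falls 11 kept their call in each of the 4 fits that left out a D number or the 72 h array of D number 5.

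The enzymes that conjugate drugs showed 12 falls and no rise among 23 genes (median -0.376). The oestrogen sulfotransferase gene Sult1e1 had 39.6, 36.8 and 125 at 72 h, against 165, 143 and 858 at 24 h (-2.27 ± 0.22). The glucuronosyltransferase gene Ugt2b10 fell by 1.68 ± 0.21. Without D number 5 the falls of this list were 5. Transporters gave 9 falls and 1 rise among 19 (median -0.453), and 3 falls and 1 rise without D number 5. In the other controls the median of this list was -0.00661 in C(NNK), with 7 falls and 4 rises. In C(2NF_PIPB_NIF) it was 0.0845, with 7 falls and 2 rises. Slc10a1, which takes bile acids up from the blood, had 244, 73.2 and 172 at 72 h, against 527, 288 and 755 at 24 h (-1.74 ± 0.21). Slc17a1, a phosphate and urate carrier, fell by 1.98 ± 0.28, while the organic anion transporter Slc22a8 was higher at 72 h in each pair and rose by 1.01 ± 0.12. Bile acid synthesis had 7 falls and no rise among 13 genes (median -0.699). Cyp7a1, its rate-limiting enzyme, had 57.9, 18.1 and 271 at 72 h, against 342, 88.1 and 547 at 24 h (-1.95 ± 0.29, adjusted p = 0.0011). Cyp7a1 differed widely between D numbers, so that the times overlapped although each pair fell. Slc27a5, which joins bile acids to coenzyme A, fell by 1.26 ± 0.18 and Amacr, a racemase of their side chain, by 0.70 ± 0.10.

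Plasma proteins outside the acute phase had 12 falls and no rise among 24 measured genes, and the complement and acute phase list 12 falls and no rise among 20. The plasma protein list had 6 falls in C(NNK) and 19 in C(2NF_PIPB_NIF), with medians of -0.0509 and -0.533, against -0.334 here. Of the carrier proteins of the plasma, albumin and transthyretin were not called. Albumin (Alb) had 5463, 5092 and 4491 at 72 h, against 5864, 5006 and 5416 at 24 h (-0.12 ± 0.15, adjusted p = 0.663). Transthyretin (Ttr) had 4568, 4730 and 4448 at 72 h, against 5268, 5196 and 5393 at 24 h (-0.21 ± 0.10, adjusted p = 0.177). The times overlapped for albumin, while each 72 h array of transthyretin was below each 24 h array. Plasminogen (Plg) had 1493, 1366 and 1932 at 72 h, against 3086, 2344 and 3531 at 24 h (-0.90 ± 0.10), and the antiplasmin gene Serpinf2 (-0.88 ± 0.09), Fetub (-0.76 ± 0.10) and coagulation factor IX (F9, -0.68 ± 0.08) fell by like amounts. The complement component C9, a part of the pore that lyses cells, had 698, 1201 and 1167 at 72 h, against 2390, 3026 and 3629 at 24 h (-1.58 ± 0.10, adjusted p = 3.47e-06). The protease inhibitor A2m, a main acute phase protein of the rat, had 1157, 3776 and 3264 at 72 h, against 5907, 6168 and 6276 at 24 h (-1.33 ± 0.29), with D number 4 far below the others at 72 h. Serum amyloid P (Apcs, -0.97 ± 0.15) and C-reactive protein (Crp, -0.79 ± 0.12) fell too. Apolipoproteins and their partners had 9 falls and no rise among 15 (median -0.526). Apoa2, of high density lipoprotein, had 335, 142 and 493 at 72 h, against 1215, 1006 and 2028 at 24 h (-2.24 ± 0.16), and Apoc4 (-1.61 ± 0.13), Apoc2 (-1.24 ± 0.14) and the cholesterol esterifying enzyme gene Lcat (-0.99 ± 0.08) fell in all 3 pairs. Of the falls in these 3 lists 7 of 12, 8 of 12 and 7 of 9 kept their call in each of the 4 fits.

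The promoters of such genes are known to hold sites of HNF1, HNF4 and C/EBP factors, and the promoters of a plasma protein gene and of a P450 gene are printed below to show such letters. RefSeq windows of 300 bases on the GRCr8 build, 250 before and 50 after the gene's start, were found for 8543 of the 10178 genes and searched on both strands. The letters TTGCNNAA of the C/EBP motif were in 8 of 26 windows of the plasma, complement and apolipoprotein genes that fell (30.8%), in 13.3% of the windows of all genes that fell and in 8.37% of all windows. For the HNF1 letters GTTAAT the counts were 7 of 26 (26.9%), 7.88% and 4.40%, for the TATA box letters TATAAA 6 of 26 (23.1%), 11% and 6.91%, and for the HNF4 letters CAAAGTCCA 0 of 26, 1.75% and 0.363%. In the 12 windows of P450 genes that fell, the C/EBP letters and TATAAA were in 3 each (25%) and the HNF1 and HNF4 letters in 2 each (16.7%). In the 24 windows of the cytoskeleton, matrix and TGF-β genes that rose, the C/EBP letters and TATAAA were in 4 each (16.7%) and the HNF1 and HNF4 letters in 0. Fgb, the fibrinogen β chain, had 2338, 3561 and 3444 at 72 h, against 3672, 4228 and 5289 at 24 h (-0.51 ± 0.10); it was picked after its values and matches were seen, and lost its call without D number 6 (adjusted p = 0.0684). Its window (chr2:170700826-170701125, minus strand) has the C/EBP letters 141 bases before the start and those of HNF1, on the other strand, 90 bases before, and the window of Cyp2e1 (chr1:205269717-205270016, plus strand), picked in the same way, has TATAAA at 49 bases and the C/EBP letters on the other strand at 30 bases before it. Capitals mark these matches, which are letters and no proof of a bound factor.
Fgb: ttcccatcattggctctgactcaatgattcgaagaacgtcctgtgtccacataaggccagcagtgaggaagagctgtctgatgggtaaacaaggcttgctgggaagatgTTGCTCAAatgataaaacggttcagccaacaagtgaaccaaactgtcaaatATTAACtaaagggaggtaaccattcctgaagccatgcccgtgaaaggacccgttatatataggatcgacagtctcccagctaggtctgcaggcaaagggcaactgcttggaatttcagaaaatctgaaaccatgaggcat
Cyp2e1: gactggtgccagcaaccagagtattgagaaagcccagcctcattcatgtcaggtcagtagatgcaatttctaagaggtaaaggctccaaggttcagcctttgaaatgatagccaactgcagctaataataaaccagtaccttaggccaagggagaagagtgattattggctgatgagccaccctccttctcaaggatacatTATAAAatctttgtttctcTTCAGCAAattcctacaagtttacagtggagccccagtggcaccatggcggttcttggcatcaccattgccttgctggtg

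Amino acid breakdown and the urea cycle was the list with the highest share of falls, 22 of 30 genes, beside 1 rise (median -0.606). Kmo, an enzyme of tryptophan breakdown, had 69.6, 25.5 and 49.3 at 72 h, against 151, 103 and 228 at 24 h (-1.78 ± 0.26). Alanine transaminase (Gpt) had 344, 167 and 402 at 72 h, against 1236, 758 and 813 at 24 h (-1.68 ± 0.21). Ornithine transcarbamylase (Otc), an enzyme of the urea cycle, had 285, 221 and 291 at 72 h, against 582, 465 and 1116 at 24 h (-1.35 ± 0.18). In all 3 genes the times did not overlap. Cdo1, which oxidises cysteine (-1.28 ± 0.14), and Hgd, of tyrosine breakdown (-1.12 ± 0.09), fell in each pair. The counts of falls were 13 without D number 4, 10 without D number 5 and 23 without D number 6. Got1, the aspartate transaminase of the cytosol, was the only rise (0.67 ± 0.18) and lost its call without any 1 of the D numbers (adjusted p = 0.0549, 0.109 and 0.124).

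Of 21 liver transcription factors 4 fell and 3 rose, with a median of -0.208. Cebpa had 271, 235 and 440 at 72 h, against 508, 328 and 655 at 24 h (-0.65 ± 0.10, adjusted p = 0.00143), with 4 of its 5 probe sets called in this direction. The oxysterol receptor Nr1h3 had 323, 235 and 402 at 72 h, against 443, 483 and 635 at 24 h (-0.72 ± 0.11). Each pair of both genes fell, and the times overlapped for Cebpa but not for Nr1h3. Hnf4a had 874, 767 and 1419 at 72 h, against 1780, 1221 and 1698 at 24 h (-0.65 ± 0.13), and lost its call without D number 4 or 5 (adjusted p = 0.0865 and 0.105). The fall of Nr1i3, the drug sensor CAR, was also lost without D number 4 or 5 (-1.13 ± 0.29, adjusted p = 0.174 and 0.257). The rise of Onecut1, a factor of early liver development (0.96 ± 0.16), was lost without D number 5 (adjusted p = 0.0537), and the list then had 0 rises and 2 falls. It had 1 rise and 3 falls without D number 4.

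Genes of fatty acid oxidation and targets of the fatty acid receptor PPARα had 11 rises and 2 falls among 29 measured genes and a median of 0.245. Angptl4, a secreted inhibitor of lipoprotein lipase, had 411, 449 and 1250 at 72 h, against 92.5, 116 and 108 at 24 h (2.54 ± 0.25, adjusted p = 7.74e-05). The fatty acid hydroxylase gene Cyp4a1 had 181, 174 and 1044 at 72 h, against 49.2, 53.8 and 108 at 24 h (2.28 ± 0.30). Vnn1, which frees pantothenate and cysteamine, had 293, 321 and 264 at 72 h, against 45.3, 99.0 and 30.6 at 24 h (2.50 ± 0.25). The times did not overlap for these genes, and for Angptl4 and Cyp4a1 the 72 h array of D number 6 was well above the other 2. Cyp4a3 (1.36 ± 0.31) and the pyruvate dehydrogenase kinase gene Pdk4 (1.22 ± 0.31) were also higher, but Cyp4a3 lost its call without D number 4 or 5 (adjusted p = 0.0771 and 0.0504) and Pdk4 without any 1 of the D numbers (adjusted p = 0.0847, 0.0957 and 0.0513). The cytosolic fatty acid carrier of the liver, Fabp1, had 167, 78.0 and 261 at 72 h, against 367, 196 and 832 at 24 h, and fell by 1.38 ± 0.12. Without D number 4, and again without D number 5, the list had 7 rises. Ppara itself was not called (-1.01 ± 0.45, adjusted p = 0.162), and it and Acta2 and Tgfb1 below were picked after their values were seen. Among 19 genes of fatty acid synthesis 5 fell and 2 rose, with 3, 3 and 2 falls and 0, 2 and 1 rises without D numbers 4, 5 and 6: Srebf1, which encodes the lipogenic factor SREBP-1, fell by 1.10 ± 0.12 and Dgat2, of triglyceride synthesis, by 0.68 ± 0.11. Of 17 genes of glycolysis and gluconeogenesis 3 rose and 1 fell, and 1 rose and 1 fell without D number 4. Txnip, which is induced by glucose and restrains its uptake, had 570, 516 and 685 at 72 h, against 179, 137 and 130 at 24 h (2.00 ± 0.14, adjusted p = 4.75e-06). The liver glycogen phosphorylase gene Pygl fell by 0.64 ± 0.08.

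On the rising side, 14 of 36 cytoskeleton and myosin genes rose and 1 fell (median 0.377). Tagln, an actin-binding protein of smooth muscle, had 1626, 2153 and 320 at 72 h, against 82.5, 275 and 160 at 24 h (2.76 ± 0.52). Anxa1, a calcium-dependent membrane-binding protein, had 197, 402 and 141 at 72 h, against 25.6, 79.6 and 57.1 at 24 h (2.20 ± 0.27). S100a6, a small calcium-binding protein, had 2625, 3510 and 1101 at 72 h, against 652, 1868 and 429 at 24 h (1.43 ± 0.18). In each of the 3 genes D number 5 was the highest 72 h array and D number 6 the lowest, and the times overlapped for S100a6 alone. Vimentin (Vim), the intermediate filament of mesenchymal cells, had 2514, 2411 and 1747 at 72 h, against 1958, 1476 and 842 at 24 h (0.71 ± 0.15). Without D number 5 Tagln and Vim lost their call (adjusted p = 0.0922 and 0.0975), Vim also without D number 6 (adjusted p = 0.0522), and the rises of the list numbered 8, 7 and 17 without D numbers 4, 5 and 6. Smooth muscle actin (Acta2) was not called (0.17 ± 0.14, adjusted p = 0.439). Of the keratins of hepatocytes, Krt18 had 4538, 4759 and 3264 at 72 h, against 4282, 4671 and 3768 at 24 h, and was not called (-0.03 ± 0.13, adjusted p = 0.895).

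Matrix genes had 13 rises and no fall among 29 (median 0.503). The plasminogen activator gene Plat had 622, 1436 and 327 at 72 h, against 117, 254 and 160 at 24 h (1.98 ± 0.24, adjusted p = 0.000292), without overlap. Lox, which cross-links collagen, had 2595, 1528 and 634 at 72 h, against 1390, 221 and 103 at 24 h (2.10 ± 0.37). Timp2, an inhibitor of metalloproteases, had 133, 303 and 85.6 at 72 h, against 32.4, 58.5 and 45.3 at 24 h (1.77 ± 0.31). Lox rose in each pair but D number 4 was far above the others at both times, and its call was lost without D number 5 (adjusted p = 0.0658), that of Timp2 without D number 4 (adjusted p = 0.0857). The fibrillar collagen gene Col1a1 had 11.9, 109 and 2.88 at 72 h, against 11.9, 12.2 and 9.84 at 24 h, and was not called (0.50 ± 0.74, adjusted p = 0.700). The list had 7, 6 and 15 rises without D numbers 4, 5 and 6.

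Of 16 genes around TGF-β and YAP, which drive matrix and actin genes, 7 rose and 1 fell (median 0.592). The ligand Tgfb2 had 337, 485 and 187 at 72 h, against 68.6, 81.2 and 45.4 at 24 h (2.31 ± 0.12, adjusted p = 6.42e-07), without overlap, and Tgif1, a repressor of TGF-β signalling, rose by 0.81 ± 0.11. Ankrd1, a YAP target, had 568, 1444 and 160 at 72 h, against 55.3, 225 and 173 at 24 h (1.98 ± 0.53), so that D number 6 did not rise; it lost its call without D number 4 or 5 (adjusted p = 0.289 and 0.259), and the list then had 3 and 2 rises. Tgfb1 was not called (0.66 ± 0.85, adjusted p = 0.657). The list of keratins and junctions had 6 rises and 1 fall among 18, and 1 and 3 rises without D numbers 4 and 5. Gjb1, the main gap junction protein of hepatocytes, had 618, 492 and 896 at 72 h, against 1127, 1158 and 1412 at 24 h (-0.92 ± 0.12), while Epcam, an adhesion protein of bile duct and progenitor cells, rose by 0.63 ± 0.10. The letters CATTCC of the TEAD factors, which carry YAP on DNA, were in 6 of 24 windows of the cytoskeleton, matrix and TGF-β genes that rose (25.0%). They were in 13.7% of the windows of all genes that rose, in 13% of those of all genes that fell and in 11.2% of all windows. The AP-1 letters TGANTCA were in 0 of 24, 5.26%, 6.65% and 4.81%, in the same order.

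Cell cycle genes gave 10 rises and no fall among 36 (median 0.504). Cyclin D1 (Ccnd1), which opens the cycle in growing hepatocytes, had 371, 362 and 147 at 72 h, against 146, 90.8 and 71.4 at 24 h (1.46 ± 0.19, adjusted p = 0.000519), and was the only one of the 10 that kept its call in each of the 4 fits. Cdkn3, a phosphatase of cyclin-dependent kinases, had 31.5, 66.0 and 14.7 at 72 h, against 6.58, 4.27 and 2.09 at 24 h (2.82 ± 0.56). Cdc20, which activates the complex that ends mitosis, had 35.3, 64.0 and 14.0 at 72 h, against 8.05, 1.71 and 8.40 at 24 h (2.41 ± 0.55). In these 3 genes D number 6 had the lowest 72 h array. The mitotic kinase gene Cdk1 had 41.8, 85.1 and 1.11 at 72 h, against 1.87, 8.26 and 3.58 at 24 h (2.30 ± 0.66). The proliferation marker Mki67 had 14.1, 64.4 and 4.54 at 72 h, against 4.45, 7.17 and 2.41 at 24 h (1.79 ± 0.51). Cdk1 did not rise in D number 6. All 24 h values of Cdkn3, Cdc20, Cdk1 and Mki67 were below the table median of 19.74, so that these genes had little room to fall. Without D number 4 the list had 3 rises, without D number 5 it had 2 and without D number 6 it had 20. Without D number 5 the adjusted p was 0.131 for Cdkn3, 0.179 for Cdc20, 0.340 for Cdk1 and 0.416 for Mki67, and without D number 4 it was 0.113 for Cdc20, 0.308 for Cdk1 and 0.180 for Mki67. The inhibitor Cdkn1a was not called (0.30 ± 0.11, adjusted p = 0.104).

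Promoters of mitotic genes are known to carry the CCAAT box of factor NF-Y and the cell cycle homology region, and 4 of them are printed to show how these letters lie. All 8 of the rising cell cycle genes with a window held CCAAT, beside 38.2% of all windows, and 5 of 8 held the letters TTTGAA (62.5%, beside 11.2%). Both were in 5 of 8 windows and in 4.55% of all. TTTGAA was also in 6 of 26 windows of the plasma, complement and apolipoprotein genes that fell (23.1%) and in 3 of 12 of the P450 genes that fell (25%). Both motifs together were in 2 of 26 (7.69%) and 2 of 12 (16.7%) of these windows. The 4 genes were picked after their matches were seen: Cdc20 (chr5:137255750-137256049, minus strand), Cdk1 (chr20:19265043-19265342, plus strand), Cdkn3 (chr15:22502136-22502435, plus strand) and Mki67 (chr1:199952544-199952843, minus strand), of which Cdc20 has its CCAAT boxes at 86 and 41 bases before the start with the other motif between them at 51 bases. Capitals mark both motifs on either strand, and in Mki67 the second TTTGAA, 99 bases before the start, overlaps a CCAAT on the other strand.
Cdc20: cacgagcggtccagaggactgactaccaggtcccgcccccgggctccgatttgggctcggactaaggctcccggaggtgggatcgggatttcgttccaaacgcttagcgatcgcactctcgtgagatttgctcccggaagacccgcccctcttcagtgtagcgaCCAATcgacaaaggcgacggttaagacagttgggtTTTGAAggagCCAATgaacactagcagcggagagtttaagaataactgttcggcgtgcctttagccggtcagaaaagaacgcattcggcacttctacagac
Cdk1: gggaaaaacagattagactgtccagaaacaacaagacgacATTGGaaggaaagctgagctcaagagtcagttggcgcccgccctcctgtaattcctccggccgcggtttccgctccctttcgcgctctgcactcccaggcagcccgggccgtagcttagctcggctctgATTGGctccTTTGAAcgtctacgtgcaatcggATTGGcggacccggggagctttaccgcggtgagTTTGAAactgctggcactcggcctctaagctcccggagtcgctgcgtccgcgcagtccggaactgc
Cdkn3: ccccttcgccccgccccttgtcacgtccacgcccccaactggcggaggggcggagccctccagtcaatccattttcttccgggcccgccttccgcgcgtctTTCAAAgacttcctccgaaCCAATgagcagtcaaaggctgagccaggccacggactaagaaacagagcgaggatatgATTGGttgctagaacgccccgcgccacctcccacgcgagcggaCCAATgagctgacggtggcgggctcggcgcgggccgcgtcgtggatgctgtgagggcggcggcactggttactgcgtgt
Mki67: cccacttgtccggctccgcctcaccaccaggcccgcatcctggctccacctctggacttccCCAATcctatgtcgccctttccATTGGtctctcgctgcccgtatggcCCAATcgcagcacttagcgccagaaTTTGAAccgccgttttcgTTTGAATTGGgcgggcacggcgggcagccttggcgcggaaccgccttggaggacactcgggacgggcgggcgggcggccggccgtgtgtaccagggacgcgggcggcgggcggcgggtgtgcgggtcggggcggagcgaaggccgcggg

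Foetal and progenitor genes had 4 rises and no fall among 8: beside Cd24, the transcription factor Sox4 had 1330, 2114 and 843 at 72 h, against 279, 713 and 198 at 24 h (1.97 ± 0.13, adjusted p = 2.51e-06). Ggt1, a glutathione-cleaving enzyme of foetal liver, had 146, 131 and 79.3 at 72 h, against 35.7, 43.6 and 25.2 at 24 h (1.76 ± 0.17). Both rose in every pair. Alpha-fetoprotein (Afp) had 192, 119 and 123 at 72 h, against 186, 154 and 163 at 24 h, and was not called (-0.24 ± 0.14, adjusted p = 0.288). H19, Igf2, Dlk1, Gpc3, Lgr5 and Peg10 were on the array but below the level for testing. The foetal and progenitor list had 3, 4 and 3 rises and 0, 0 and 1 falls without D numbers 4, 5 and 6. Of the stress lists, heme oxygenase (Hmox1), an NRF2 target, fell by 1.25 ± 0.16, among 7 falls and 1 rise in 20 genes of the NRF2 and heme list, which had 5, 1 and 4 falls without D numbers 4, 5 and 6. The neutrophil attractant Cxcl1 had 303, 660 and 332 at 72 h, against 731, 1226 and 1369 at 24 h (-1.40 ± 0.18). The superoxide dismutase gene Sod2 fell by 0.58 ± 0.09, and the membrane-bound chemokine Cx3cl1 rose by 2.67 ± 0.35, in a list of chemokines and NF-kB genes with 2 rises and 4 falls among 16. Without D numbers 4, 5 and 6 this list had 1, 1 and 4 rises and 3, 3 and 2 falls. The monocyte attractant Ccl2 had 832, 2045 and 135 at 72 h, against 90.7, 161 and 157 at 24 h (2.21 ± 0.58), was not higher in D number 6 and lost its call without D number 4 or 5 (adjusted p = 0.265 and 0.269). Insulin-like growth factor 1 (Igf1) had 702, 1119 and 1506 at 72 h, against 1833, 2065 and 2084 at 24 h (-0.91 ± 0.14), while Socs2, a brake on growth hormone signals, rose by 1.62 ± 0.21.

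The background was 16.7% for both directions together, and 5 further lists held a smaller share of called genes. Of 32 genes of ATF4 and the unfolded protein response 1 was called, the chaperone gene Dnajc3 (-0.70 ± 0.09), of 30 proteasome genes 1 and of 47 genes of the respiratory chain 2. The clock list had 1 rise among 16 and interferon and antigen presentation 1 rise and 2 falls among 24. In 3 other lists the share was above the background, with as many rises as falls: cholesterol synthesis had 2 and 2 among 19, the glucocorticoid and cAMP list 2 and 2 among 15, and lysosomal genes 3 and 3 among 28. These small counts moved when a D number was left out: without D number 5 none of the respiratory chain, clock, cholesterol or glucocorticoid and cAMP genes was called, and lysosomal genes then had 1 rise and 1 fall, as they did without D number 4. A gene that was not called may still have changed, and with 3 pairs only changes that are large beside their spread pass.

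Markers of other liver cells were detected beside those of hepatocytes. Of 20 measured macrophage and leukocyte markers 5 fell and none rose (median -0.292). In C(NNK) the median of these markers was 0.0354, with 2 falls, and in C(2NF_PIPB_NIF) it was -0.0168, with 3 falls. The Fc receptor Fcgr2b, which in liver marks the sinusoidal endothelium as well, had 20.5, 18.5 and 11.4 at 72 h, against 86.0, 81.9 and 115 at 24 h (-2.52 ± 0.30). Cd68, a lysosomal protein of macrophages, had 49.9, 63.4 and 41.1 at 72 h, against 98, 111 and 115 at 24 h (-1.09 ± 0.15). Clec4f had 11.3, 62.5 and 5.2 at 72 h, against 69.5, 183 and 91.5 at 24 h. In limma it was not called in C(NNK) (-0.85, adjusted p = 0.416) or in C(2NF_PIPB_NIF) (-1.14, adjusted p = 0.263). The summed level of the list was 1250, 2125 and 1590 at 72 h, against 1579, 2340 and 2581 at 24 h, so that it overlapped while Fcgr2b, Cd68 and Clec4f did not. Of 7 endothelial markers 4 fell and none rose; the hyaluronan receptor Lyve1 had 16.4, 17.2 and 7.54 at 72 h, against 73.0, 36.3 and 69.7 at 24 h (-2.15 ± 0.37), but no call of the list was kept in all 4 fits (Lyve1 without D number 4, adjusted p = 0.0681), and the falls numbered 0, 2 and 1 without D numbers 4, 5 and 6. The sum of this list was 147 to 398 at 72 h and 234 to 268 at 24 h, and 8 further endothelial markers on the array, among them Stab2 and Vwf, were below the level for testing. The endothelial median was -1.39 here, -1.03 in C(NNK) and -1.01 in C(2NF_PIPB_NIF). Of 13 stellate and fibroblast markers 2 rose (Lox and Tagln) and 2 fell, of which decorin (Dcn) had 13.6, 10.2 and 6.19 at 72 h, against 58.0, 33.1 and 65.0 at 24 h (-2.40 ± 0.33). The rises of this list numbered 2, 0 and 5 without D numbers 4, 5 and 6. Its median was 0.459 here, 0.343 in C(NNK) and -0.326 in C(2NF_PIPB_NIF). The summed level of the list was 4756, 4910 and 1428 at 72 h, against 1975, 1152 and 864 at 24 h. Most of the 72 h sum came from Lox and Tagln, which are also in the matrix and cytoskeleton lists, and without them the sum of the other 11 was 534.8, 1229 and 473.4 at 72 h, against 502.5, 657.1 and 600.7 at 24 h. Of 5 measured bile duct markers Epcam and Krt7 rose, while Krt19, Cftr, Spp1 and Muc1 were on the array but below the level for testing. The median of this list was 0.634 here, 1.33 in C(NNK) and 1.3 in C(2NF_PIPB_NIF). Krt7 (3.61 ± 0.86) had 21.1, 237 and 10.9 at 72 h and was below the floor in all 24 h arrays, and it lost its call without D number 4 (adjusted p = 0.0894) or without its 72 h array of D number 5 (adjusted p = 0.101). The sum of the bile duct list was 519, 1003 and 742 at 72 h, against 406, 511 and 534 at 24 h. What part these cells had in the changes above was not tested.

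The 3 pairs did not change to the same degree. The SD of the change over all tested probe sets was 0.628 in D number 4, 0.694 in D number 5 and 0.587 in D number 6. Of the 1009 genes that rose, 447 had their largest change in D number 5, 382 in D number 4 and 180 in D number 6, and the median change of these genes was 0.838, 0.809 and 0.542. The falls were more alike, with medians of -0.728 in D number 5, -0.540 in D number 4 and -0.565 in D number 6. By list, the median of the cell cycle genes was 0.564, 1.14 and -0.0232 in D numbers 4, 5 and 6, that of the matrix genes 0.500, 1.12 and 0.181, and that of the stellate markers 0.471, 0.999 and -0.136. The fatty acid oxidation and PPARα list ran the other way, with 0.260, 0.153 and 0.626, and the macrophage markers were at -0.0299, 0.053 and -0.797. Plasma proteins (-0.454, -0.265 and -0.383) and apolipoproteins (-0.506, -0.519 and -0.487) differed less between the pairs. With 1 pair per D number these differences could not be tested.

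**Figure D3:**
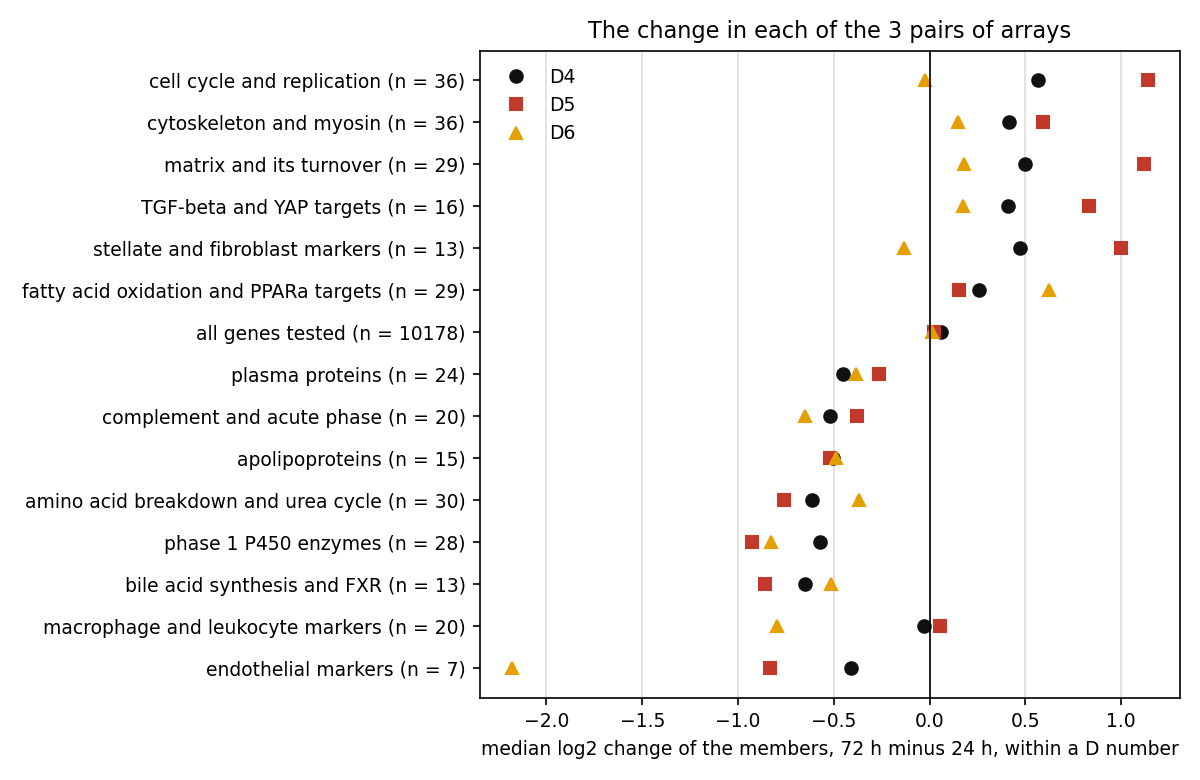
Median log2 change, 72 h minus 24 h, of the measured members of 14 gene lists and of all genes tested, within D numbers 4 (circles), 5 (squares) and 6 (triangles). In D number 6 the cell cycle list is at -0.0232 and the endothelial list at -2.18, while the apolipoprotein list lies between -0.519 and -0.487 in all 3 pairs.

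The same interval was measured in other dishes that share no array with these controls. The calls of treated and control dishes nevertheless came from 1 fit with a shared residual spread per probe set, so they are not independent. In the methapyrilene-treated dishes of the same D numbers 2400 of 18048 probe sets were called (13.3%; 7.75% higher and 5.55% lower). Of the genes that rose in the controls 997 of 1009 were higher at 72 h in the treated dishes and 675 were called, and of those that fell 679 of 689 were lower and 483 called. Over all 10178 genes 5408 were higher at 72 h in the treated dishes, and 1648 were called in either direction. The difference between the treated and the control change passed for 0 probe sets in limma, with 678 at an unadjusted p under 0.05, and no other tool was run. Cd24 changed by 5.22 in treated and 5.07 in control dishes, Cyp1a2 by -4.28 in both. Other genes were less alike. Hmox1 changed by -1.25 in control and 0.04 in treated dishes (adjusted p = 0.897 in treated). Col6a2 changed by 2.90 in control and 1.29 in treated dishes (adjusted p = 0.0667 in treated). Col6a2 was also not called in C(NNK) (0.54) or C(2NF_PIPB_NIF) (0.08). These genes were picked with their values known.

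In the C(NNK) controls 4172 probe sets were called (23.1%; 13% higher and 10.2% lower) and in the C(2NF_PIPB_NIF) controls 3524 (19.5%; 10.8% higher and 8.77% lower), in a fit of 48 arrays of D numbers 4 to 9. In that fit the C(MPH) cells themselves had 2320 called probe sets (12.9%; 7.97% higher and 4.88% lower). Of the 1009 rising genes 969 were higher at 72 h in C(NNK), 618 of them called, and 953 were higher in C(2NF_PIPB_NIF), 573 of them called. Of the 689 falling genes 653 and 652 were lower there, with 432 and 386 called. In each of the 2 groups 3 genes were called in the opposite direction. Over all 10178 genes 4978 were higher at 72 h in C(NNK) and 5183 in C(2NF_PIPB_NIF). In either direction 2595 and 2264 genes were called. These 2 groups share D numbers with each other, and genes within an array are not independent. The fit of 48 arrays also holds the 12 arrays of the main fit, so that the calls share part of their spread estimate.

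A further control group, C(WYE_CND_AFB), has D numbers 1, 2 and 3, and its pairs did not all change the same way. Of the 1009 genes that rose in the C(MPH) cells 905 were higher at 72 h in its D number 1, 670 in D number 2 and 178 in D number 3. Of the 689 that fell 637, 403 and 130 were lower. The median change was 0.53, 0.203 and -0.493 for the rising genes and -0.415, -0.0614 and 0.385 for the falling ones, so that D number 3 ran opposite to the other 2. In limma on the 24 arrays of these D numbers 0 probe sets were called (0%), with 212 at an unadjusted p under 0.05, and no other tool was run. Without D number 3 there were 29 calls (0.161%), and 1052 at an unadjusted p under 0.05. The fitted change was then higher for 845 of the rising genes, 9 of them called, and lower for 552 of the falling genes, 13 of them called, beside 672 and 404, with none called, over all 3 D numbers. The 3′ probe set of actin exceeded the 5′ one by 2.71 at 24 h and 2.01 at 72 h in D number 3, on the log2 scale. In D numbers 1 and 2 of this group it did so by 0.496 to 0.738. This group was added after the data were seen, and the cause of the difference of D number 3 was not tested.

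The size of the change was tested against the other controls by an interaction term. It differed from C(NNK) for 13 probe sets (0.072%; 0.0443% with the higher and 0.0277% with the lower change in C(MPH); 1985 at an unadjusted p under 0.05) and from C(2NF_PIPB_NIF) for 23 (0.127%; 0.0332% higher and 0.0942% lower; 2043 unadjusted), with 5 probe sets in both, 3 of them with a gene name. Slc27a5 had 230, 65.4 and 241 at 72 h, against 445, 197 and 571 at 24 h in the C(MPH) cells, whereas it had 540, 328 and 585 at 72 h, against 263, 254 and 390 at 24 h in C(2NF_PIPB_NIF), and 403, 195 and 587 at 72 h, against 345, 210 and 348 at 24 h in C(NNK). It was thus lower at 72 h in all 3 pairs of C(MPH) and higher in all 3 of C(2NF_PIPB_NIF), and the difference was -1.55 ± 0.32 from C(NNK) (adjusted p = 0.0388) and -1.93 ± 0.32 from C(2NF_PIPB_NIF) (adjusted p = 0.00536). Trak2, an adaptor that ties mitochondria to kinesin, changed by -0.00 in C(MPH), by 1.11 in C(NNK) and by 1.09 in C(2NF_PIPB_NIF). Ccar1, a coactivator of nuclear receptors and regulator of the cell cycle, had -0.38, 0.64 and 0.79 in the same order. Without the first replicate of each group all 3 genes lost the call of both differences (adjusted p from 0.0905 to 0.224). Without the second replicate Trak2 kept its call against C(NNK) and the other 5 differences lost theirs (0.0583 to 0.157), and without the third the 3 against C(NNK) were lost (0.208 to 0.281) while those against C(2NF_PIPB_NIF) were kept. With no replicate block Ccar1 against C(2NF_PIPB_NIF) alone passed (adjusted p = 0.0086), and with the control arrays alone 0 probe sets passed in either comparison (adjusted p from 0.066 to 0.268 for the 3 genes). With no filter Slc27a5 lost its call against C(NNK) (adjusted p = 0.0847) and the other 5 differences kept theirs.

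**Figure D4:**
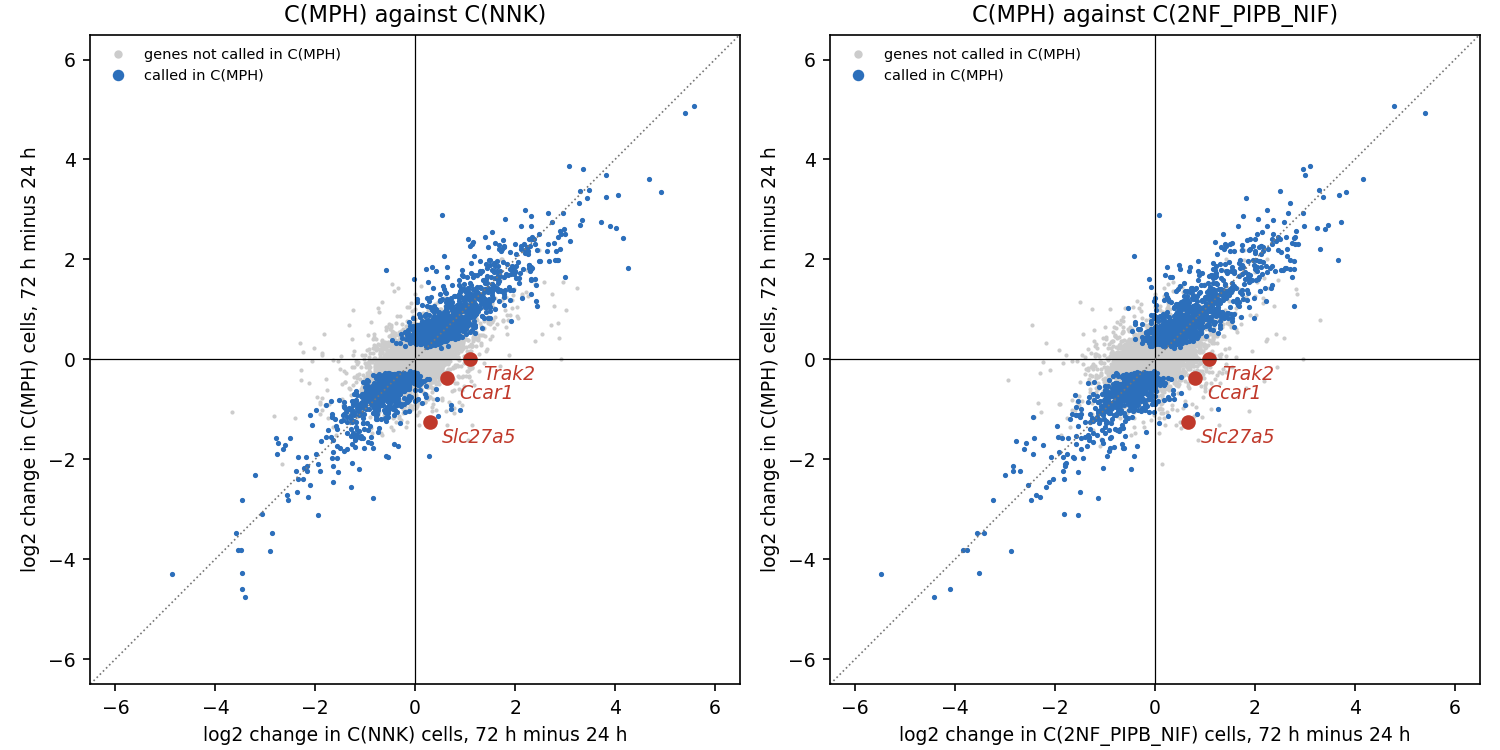
Log2 change, 72 h minus 24 h, of each gene in the C(MPH) cells (vertical axis) against that in the C(NNK) cells (left panel) and in the C(2NF_PIPB_NIF) cells (right panel), with genes called in C(MPH) in blue, the others in grey and a dotted line of equal change. Slc27a5, Ccar1 and Trak2, in red, lie below the line in both panels, with changes in C(MPH) of -1.26, -0.38 and -0.00.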

How the data were processed

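Biotin-labelled total RNA of rat primary hepatocytes was measured on Affymetrix arrays, 1 array for each of 72 samples in 24 groups of 3. The deposited values are linear intensity values made with MAS5, per the submitters' processing notes; the sources used here give neither its version nor its settings. MAS5 corrects matching probes by their mismatch partners, which makes low values noisy. The number of arrays limits the precision. No column was left unused (0).

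Values under 3.117, the 20th percentile over all arrays, were set to it before log2 was taken, so that changes near this floor are understated. Affymetrix controls (57 probe sets) were dropped, and 18048 of 31042 others (58.1%) were kept, with a group mean at or above the table median of 19.74. The comparison was fitted with limma 3.58.1 in R 4.3.3 on the 12 arrays of D numbers 4 to 6, with group means and the D number as a block (6 residual degrees of freedom), an intensity trend and Benjamini-Hochberg adjustment over all probe sets. Other controls were fitted on 48 arrays of D numbers 4 to 9. The controls of D numbers 1 to 3 were left out of these fits with earlier results of these data known. The reason was that the culture time of some arrays with these D numbers was in doubt. These controls were fitted apart, with and without D number 3, and are reported beside the others. Samples of the same D number were checked for pairing: the deviations of same-numbered arrays from their group means correlated at 0.430, 0.432 and 0.353, and those of other pairs at -0.237 to -0.113. The SE and p-values measure the residual spread between all arrays of a fit, treated dishes included, with 1 shift per D number. They are not the spread of the 3 C(MPH) pairs alone, which they can understate where the pairs differ. Cdk1, for example, changed by 3.745, 3.365 and -0.198 in the pairs, with a fitted SE of 0.66.

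Gene names came from the platform annotation (20826 probe sets with 1 symbol, 436 with several, 9780 with none), and of several probe sets for a gene the one with the highest log2 mean over the 72 arrays was used. Named genes are the 15 largest rises and falls with the same sign in 3 pairs and no group wholly at the floor, up to 5 called members per list and direction, the 5 called genes with the widest range over the pairs, genes whose change differed from both other controls, and 21 further genes of which 18 were tested; the text names fewer, favouring genes that kept their call with each D number left out. Of the genes outside this rule, Ppara, Acta2, Tgfb1 and Fgb were picked with their values known. The lists, genes and comparisons were chosen with earlier results of these data known. Several lists share members. The alternatives were the block, the arrays in the fit, the filter, the floor, quantile normalization, the trend, and leaving out each D number; leaving out 1 array and the controls of D numbers 1 to 3 were added after the data were seen. The fit was tested on simulated data.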

Additional observations from a re-analysis of the deposited data

Results flagged for a closer look

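The change between 72 h and 24 h was different in the C(MPH) cells and in another control group, by the test of the difference itself, for 13 probe sets against C(NNK) and for 23 against C(2NF_PIPB_NIF). For Slc27a5 the differences, C(MPH) minus the other control, were -1.55 and -1.93 on the log2 scale, for Trak2 they were -1.11 and -1.09, and for Ccar1 -1.02 and -1.17. The C(MPH) cells have D numbers 4 to 6 and the other controls 7 to 9, so that the set of dishes and the control group cannot be told apart. In groups of 3 arrays no single array was tested as an outlier.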

How the results depend on the processing

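The count of 2581 called probe sets was 164 with no replicate block (85 higher, 79 lower), and since the D numbers pair the arrays the fit with the block was reported; all 164 were among the 2581. It was 1258 with the 6 C(MPH) arrays alone, 92 with all 72 arrays and no block, 1521 with no filter, 739 to 2341 with a D number left out and 1191 without the 72 h array of D number 5, and between 1996 and 2655 under the other 6 alternatives. The called list members, 243 summed over the lists, were 32 with no block, 12 with 72 arrays and no block, 140 with no filter, 126 to 239 with a D number left out and 157 without that array. The change in treated dishes (2400) gave 164 with no block, 1419 with no filter and 805 to 2206 with a D number left out, and its difference from the controls 6 probe sets with no filter. C(NNK) gave 2739 and C(2NF_PIPB_NIF) 2178 with no block, and 1566 to 3748 and 1262 to 2818 with replicates left out. The 13 differences from C(NNK) were 0 with no block, 22 after quantile normalization, 0 with control arrays only and 1 to 7 with replicates left out, and the 23 from C(2NF_PIPB_NIF) were 4 with no block, 0 with control arrays only and 4 to 62. The cause was not tested, apart from the smaller number of arrays in the fits that leave some out. Of 173 named genes that were called, 38 kept the call with no block and 20 with 72 arrays and no block. The count was 125 with the 6 C(MPH) arrays alone, 148 with 48 arrays, 112 with no filter and 124 with a floor of 16. It was 162 after quantile normalization, 106, 105 and 143 without D numbers 4, 5 and 6, and 124 without the 72 h array of D number 5. With a filter on the mean of the 6 C(MPH) arrays 147 of them were tested, and 147 kept the call. None turned direction under these alternatives. Signals near the floor limit what can be said of dim genes, as 5 called genes rest on a group wholly at the floor.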
